A study of Mus musculus with 4 samples.

Results

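The miR-29 family of the mouse consists of the microRNAs miR-29a, miR-29b and miR-29c, which are made from 4 precursor genes. The members were chosen by name, with their ESC and EB values already known, as the entries mir-29a, mir-29b-1, mir-29b-2 and mir-29c, and make up 4 of the 626 precursor entries of the table. Their difference between the groups is therefore given as a description. MicroRNAs were sequenced on an Ion Torrent PGM from CGR8, a feeder-independent mouse embryonic stem cell line, labelled with the background strain C57BL/6 and the donor strain 129P2/OlaHsd, at passages 5 to 13. The day 0 group was embryonic stem cells (ESCs) kept with leukemia inhibitory factor (LIF, 100 U/ml) in 10% serum. The day 8 group was embryoid bodies (EBs), floating aggregates in which the cells differentiate, made without LIF in 20% serum from hanging drops of 1000 cells over 2 days and then kept in suspension for 6 days. No gene was altered in either group, as far as the labels say, and an EB is a mixture of cell types. The title of the series names TGF-β signalling and stem cell fate, and the comparison asks how each microRNA differs between the day 0 and day 8 cells.

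A microRNA pairs with messenger RNAs mainly through its seed, bases 2 to 8 from the 5′ end, and lowers the stability and translation of the messages it binds. The miR-29 microRNAs are best known for repressing genes of the extracellular matrix, such as collagens and elastin, and the enzymes that add or oxidise methyl groups on DNA, DNMT3A, DNMT3B and the TET proteins. Their level is generally low in undifferentiated and dividing cells and high in many adult tissues. The transcription factor Myc is known to repress them, and TGF-β is known to lower them in fibroblasts.

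The mature sequences of the main (3p) strands are shown because they explain which entries can be told apart by their reads. They are RefSeq sequences on GRCm38.p6, written 5′ to 3′ with the seed in capitals.
miR-29a-3p: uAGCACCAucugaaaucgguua
miR-29b-3p: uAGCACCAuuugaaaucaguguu
miR-29c-3p: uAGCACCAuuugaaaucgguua
All 3 carry the seed AGCACCA. Among 1738 mature mouse sequences in the RefSeq table, no microRNA outside these 3 had it. Counted from 1 at the 5′ end, miR-29a-3p and miR-29c-3p differ by a single base (C10U) over 22 bases. Between miR-29b-3p and miR-29c-3p there were 3 differences over the same length (A18G, G21U and U22A), all near the 3′ end. A read of this strand that ends before base 18 therefore matches both miR-29b and miR-29c.

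The genes lie in 2 pairs. On chromosome 6 of GRCm38, on the minus strand, Mir29a spans 31062660 to 31062747 and Mir29b-1 spans 31063023 to 31063093. GENCODE M21 places no other gene on Mir29a, and the first bases of Mir29b-1 overlap the 3′ end of a long noncoding RNA on the same strand, Gm27019 (31063092 to 31063495). On chromosome 1, on the plus strand, Mir29b-2 spans 195037040 to 195037120 and Mir29c spans 195037547 to 195037634. Both lie in the same exon (195033823 to 195037904) of the noncoding transcript A330023F24Rik, and, on the opposite strand, within an exon of Cd46 (195036826 to 195042013), which encodes a complement regulator. The genome build behind the counts was not given in the sources used here, so these positions describe the genes and not the reads.

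The entries mir-29b-1 and mir-29b-2 share their 3p strand. Their hairpins are shown for this reason, with that strand in capitals.
Mir29b-1: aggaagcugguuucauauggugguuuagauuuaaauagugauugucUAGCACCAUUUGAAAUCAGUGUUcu
Mir29b-2: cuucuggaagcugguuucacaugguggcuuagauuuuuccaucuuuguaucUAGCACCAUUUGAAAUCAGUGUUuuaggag
The capitals are the same 23 bases in both, whereas the arms before them differ. The ESC counts of these entries were 183 and 187 for mir-29b-1 and 185 and 181 for mir-29b-2. In the EBs they were 76 and 73 for mir-29b-1 and 70 and 73 for mir-29b-2. The ratio of mir-29b-1 to mir-29b-2 was 1.01 (95% counting interval 0.820 to 1.25) in the ESCs and 1.04 (0.743 to 1.46) in the EBs. Such near-equality was common in the table. Of 17 microRNAs listed as exactly 2 numbered copies with at least 10 counts each, 14 had copies within 1.1-fold in the ESCs and 14 in the EBs. Whether a shared read was counted at both copies or divided between them was not given in the sources used here, so the copies were not taken as separate evidence.

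The labels list 2 replicates in each group, and each has a column of counts. The total microRNA count was 557250 and 557643 in the ESC columns and 139104 and 139360 in the EB columns, which made the EB library 4.0 times shallower. The columns of each group differed by less than counting error (chi-square per degree of freedom 0.235 for the ESCs and 0.284 for the EBs), so each pair was counted as 1 sample by its mean and is called a library. The labels do not say whether the replicates came from separate cultures. With each pair counted as 1 sample there was no replicate check and no p-value. All intervals are exact 95% intervals for counting error alone. They set one library against the other and say nothing of how cultures vary. In bulk RNA, fewer cells with a microRNA and less of it per cell cannot be told apart. The miR-290 to miR-295 cluster, which marks mouse ESCs, took 53.9% of counts in the ESCs and 52.3% in the EBs. The cluster of miR-302 with miR-367, typical of epiblast-stage cells, took 0.0341% and 6.53%.

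The miR-29 family was a minor part of both libraries. Its 4 entries together had 483 and 495 counts in the ESC columns and 187 and 197 in the EB columns. That was 0.0877% of all ESC counts (0.0801 to 0.0958) and 0.138% of all EB counts (0.119 to 0.159). With miR-29b counted once, as the mean of its copies, the shares were 0.0547% and 0.0855%. The family thus took a larger share of the EB library than of the ESC library by either way of counting.

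The levels of the members followed one order in both libraries, with each miR-29b entry highest, miR-29a next and miR-29c lowest. Levels are given as CPM, counts scaled to a common library total. The entry mir-29b-1 was at 328 and 335 CPM in the ESC columns and at 546 and 524 CPM in the EB columns. The entry mir-29b-2 was at 332 and 325 CPM in the ESCs and at 503 and 524 CPM in the EBs. The means of both were higher in the EBs, as were those of 207 of the 367 measured entries by library totals. For mir-29a, from the same locus as mir-29b-1, the ESC columns gave 163 and 178 CPM and the EB columns 223 and 280 CPM. The entry mir-29c was the scarcest, at 43.1 and 50.2 CPM in the ESCs and 71.9 and 86.1 CPM in the EBs, which were only 10 and 12 counts. The means of mir-29a and mir-29c were higher in the EBs too, but the intervals of the library means overlapped. For mir-29a they were 138 to 208 CPM and 175 to 350 CPM, and for mir-29c 30.5 to 68.3 CPM and 39.4 to 141 CPM. A floor of 3 counts stood at 5.38 CPM for the ESCs and 21.5 CPM for the EBs, below every value of the members.

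**Figure D1:**
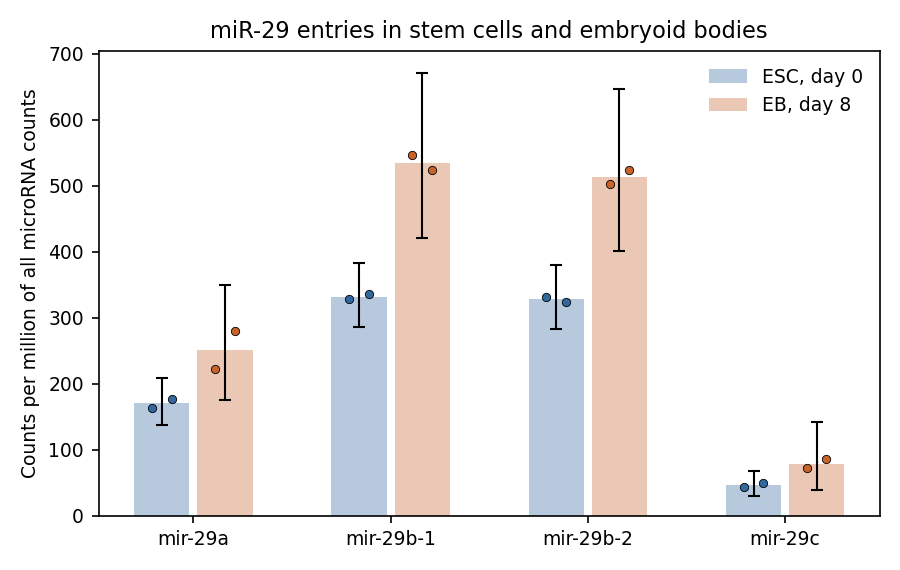
Level of each miR-29 entry, in CPM of all microRNA counts, in ESCs (blue) and EBs (orange). Bars are the mean of both columns, points the columns, and whiskers the exact 95% counting interval of the mean. The columns of a group differed by less than counting error and were not counted as separate samples. Each EB bar is higher than its ESC bar, as were 207 of the 367 measured entries by library totals. The whiskers of mir-29a and mir-29c overlap between groups. In the authors' quantile-normalized values, given below, mir-29a and both miR-29b entries were lower in the EBs.

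In order of abundance the entries held similar places in both libraries. Of 626 entries, mir-29b-1 ranked 122 in the ESCs and 147 in the EBs, and mir-29b-2 ranked 123 and 151. The entry mir-29a ranked 183 and 194, and mir-29c ranked 300 and 277. By rank, which needs no scaling, mir-29a and the miR-29b entries thus stood lower in the EB library, and mir-29c stood higher.

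The direction of the fold for miR-29a and miR-29b depended on the scaling between the libraries. With TMM scaling (trimmed mean of M-values), which sets the bulk of the entries equal, mir-29a was 1.21-fold higher in the EB library (0.798 to 1.80) and mir-29c 1.39-fold higher (0.621 to 2.92). The fold of mir-29b-1 was 1.32 (0.999 to 1.74) and that of mir-29b-2 was 1.29 (0.964 to 1.70). Each of the 4 intervals included no difference. The summed family was 1.29-fold higher (1.09 to 1.53), and 1.28-fold (1.03 to 1.59) with miR-29b counted once. By library totals the sum was 1.57-fold higher (1.32 to 1.86), with the members between 1.48-fold for mir-29a and 1.69-fold for mir-29c.

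In the authors' deposited quantile-normalized values, which force all columns onto the same set of values, the direction was the opposite for 3 of the 4 entries. There mir-29a was at 65.3 and 75.8 in the ESCs and at 50.8 and 64.8 in the EBs, a log2 ratio of EB to ESC of -0.29. The log2 ratios of mir-29b-1 and mir-29b-2 were -0.32 and -0.36, and that of the sum was -0.30. Only mir-29c kept its direction, at 0.26. The median log2 fold over all 367 measured entries also moved with the scaling, from 0.07 with TMM to 0.35 by library totals and to -0.19 after quantile normalization. Relative to that median, the log2 folds of mir-29a, mir-29b-1, mir-29b-2 and mir-29c were 0.21, 0.34, 0.30 and 0.41 with TMM, and -0.09, -0.13, -0.17 and 0.45 in the quantile-normalized values.

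**Figure D2:**
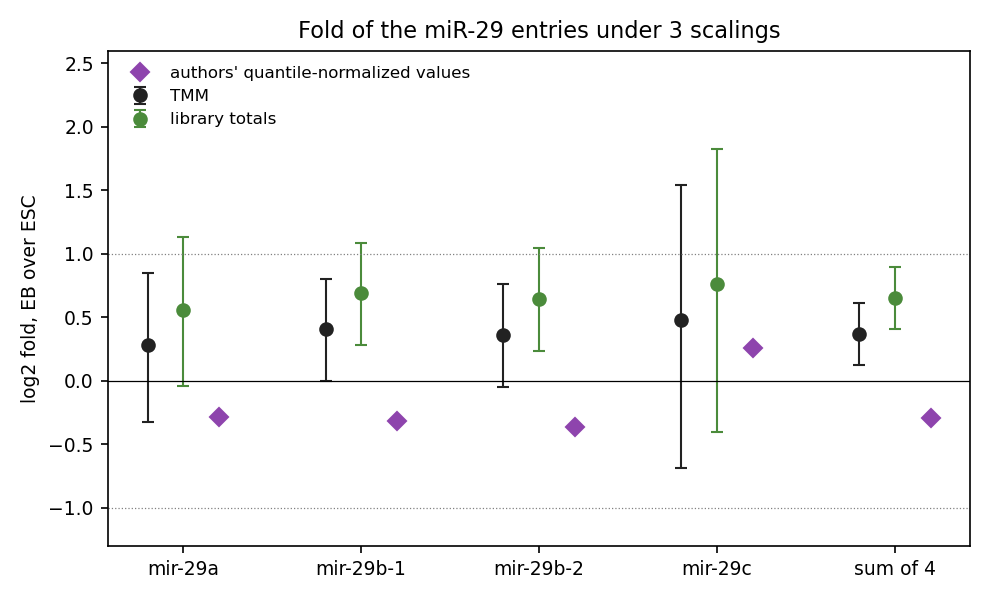
log2 fold (EB over ESC) of each miR-29 entry and of their sum with TMM scaling (black), library totals (green) and the authors' quantile-normalized values (purple). Whiskers are exact 95% counting intervals (none for the quantile-normalized values), and dotted lines mark 2-fold; no point reaches 2-fold, and the purple points lie below 0 for mir-29a, both miR-29b entries and the sum but above 0 for mir-29c.

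No miR-29 entry was 2-fold higher or lower under any of these 3 scalings. With TMM, 33.5% of the 367 measured entries had an EB level at least 2-fold above the ESC level and 30.2% one at least 2-fold below it. By library totals these shares were 38.4% and 26.4%. They were 28.1% and 31.6% after quantile normalization. The members were chosen with this contrast known, so nothing is read from their place in it. Of the 153 other entries between the lowest and highest TMM-scaled level of the members (61.5 to 425 CPM, as the mean of both libraries), 50 were above that limit in the EBs, 39 were as far below it and 64 lay under 2-fold.

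The makeup of the family was nearly the same in both libraries, and this comparison needs no scaling. With miR-29b counted once, miR-29a made up 31.1% of the family's counts in the ESCs (26.0 to 36.7) and 29.4% in the EBs (21.4 to 38.5). For miR-29b the shares were 60.3% (54.6 to 65.9) and 61.3% (52.0 to 70.1), and for miR-29c 8.52% (5.64 to 12.2) and 9.24% (4.71 to 15.9). The count of mir-29a was 3.65 times that of mir-29c in the ESCs (2.35 to 5.88) and 3.18 times in the EBs (1.58 to 6.95). These entries come from the different loci and are the only members that tell the loci apart, since miR-29b comes from both. The EB to ESC count ratio of mir-29c was 1.15 times that of mir-29a, with an interval of 0.461 to 2.72. That of miR-29b was 1.08 times that of mir-29a (0.656 to 1.79). At this depth a difference between the members was not detectable, and differences of up to about the interval bounds remain possible.

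**Figure D3:**
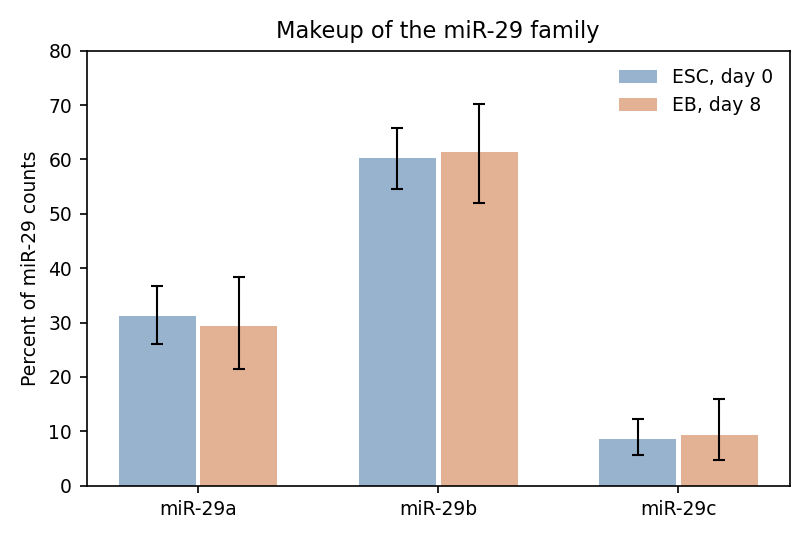
Share of the family's counts taken by miR-29a, miR-29b (mean of its copies) and miR-29c, in percent, in ESCs (blue) and EBs (orange). Whiskers are exact 95% Clopper-Pearson intervals; miR-29b holds 60.3% and 61.3%, and the intervals of the groups overlap for all 3 microRNAs.

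Other microRNAs that Myc is known to repress were mostly lower in the EB library with TMM scaling, under which the miR-29 entries were higher; in the quantile-normalized values mir-29a and both miR-29b entries were lower as well. The list was chosen with these results known, and no part of Myc in them was tested. Of 15 such entries outside the family, 14 were measured (mir-146a had 1 count in each column). With TMM, 8 of them were at least 2-fold lower, beside 30.2% of all measured entries, 6 lay under 2-fold and none was 2-fold higher, beside 33.5%. Their median log2 fold was -1.16 with TMM, -0.87 by library totals, where 6 were at least 2-fold lower beside 26.4% of all measured entries, and -1.14 in the quantile-normalized values, beside medians of 0.07, 0.35 and -0.19 over all measured entries. The most abundant, mir-16-1, a microRNA that restrains the cell cycle, had 15704 and 15701 counts in the ESCs and 1440 and 1443 in the EBs, and was 3.31-fold lower (3.14 to 3.50). The p53 target mir-34a had 4329 and 4317 counts in the ESCs and 546 in each EB column, and was 2.41-fold lower (2.20 to 2.64). It lay under 2-fold by library totals, at a log2 fold of -0.98, and in the quantile-normalized values, at -0.62. The copies mir-26a-1 and mir-26a-2 were each 1.54-fold lower, but slightly higher in the quantile-normalized values (log2 ratios 0.12 and 0.09).

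A ratio of count ratios does not depend on a scaling that multiplies a library by a single factor, so the family was also set against these microRNAs in that way. Quantile normalization is not such a scaling. The EB count of the family, with copies counted once, was 0.390 times its ESC count, while the library totals stood at 1 to 4.0. For the summed counts of the Myc-repressed list the ratio was 0.101, so that of miR-29 was 3.88 times as large (3.10 to 4.82). That sum rests largely on mir-16-1, with 15702.5 of its 29539.5 ESC counts and 1441.5 of its 2973 EB counts. Single entries of the list had ratios from 0.0254 (mir-150) to 0.348 (let-7f-1). The ratio of miR-29 was 4.31 times that of the miR-30 family (3.40 to 5.43), 2.04 times that of the let-7 family (1.54 to 2.70) and 1.99 times that of the miR-26 family (1.56 to 2.53). The EB to ESC count ratios of the 4 miR-29 entries, 0.368 to 0.423, lay above those of all 14 measured entries of the list. The miR-29b copies among them are not separate evidence. Over all 367 measured entries the 4 ranked only 153 to 168 from the highest by TMM fold, so many entries outside the list stood higher. The nearest entries of the list were let-7f-1 at 0.348 and mir-497a at 0.319, whose intervals overlapped those of miR-29. In the quantile-normalized values the order was another. There the log2 ratios of mir-26a-1, mir-26a-2, let-7f-1 and mir-497a (0.12, 0.09, -0.21 and -0.24) lay above those of mir-29a and both miR-29b entries (-0.29, -0.32 and -0.36), and only mir-29c, at 0.26, stood above all 14. The entries let-7f-1 and mir-497a were singled out after their values were seen.

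**Figure D4:**
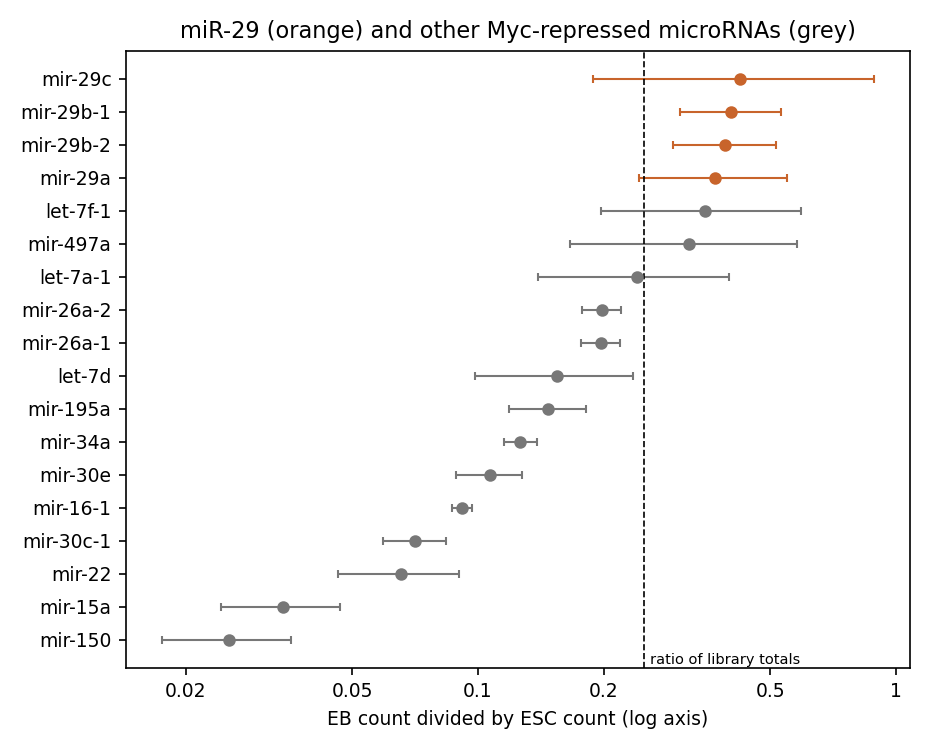
EB count divided by ESC count (log axis, no scaling) for the 4 miR-29 entries (orange) and the 14 measured Myc-repressed microRNAs outside the family (grey). Whiskers are exact 95% counting intervals, and the dashed line is the ratio of the library totals. The orange points, at 0.368 to 0.423, stand above all grey points in these counts, though not in the quantile-normalized values. Over all 367 measured entries they ranked only 153 to 168 from the highest by TMM fold. The intervals of let-7f-1, mir-497a and let-7a-1 overlap those of every miR-29 entry, and those of let-7d and the mir-26a copies overlap that of mir-29c.

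Besides miR-29, 15 entries reported to act on DNMT or TET genes were measured. With TMM, 8 of them were lower by 2-fold or more, 6 lay under 2-fold and 1 was higher by 2-fold or more, beside 30.2% lower and 33.5% higher among all measured entries. The 8 included both copies of miR-7a and both of miR-125b, near-equal in counts, so they stand for fewer than 8 separate microRNAs. Their median log2 fold was -1.40, beside 0.07 over all. The most abundant were mir-7a-1 and mir-7a-2, copies of a microRNA known from neural and endocrine cells, which were lower by 3.84-fold (3.41 to 4.35) and by 3.99-fold (3.53 to 4.52), followed by the miR-26a copies above. In the quantile-normalized values the log2 ratios of the miR-7a copies were -1.18 and -1.21, against -1.94 for mir-7a-1 with TMM. The higher entry was mir-152, of the miR-148 family, named after its values were seen. It had 93 and 92 counts in the ESCs and 203 and 202 in the shallower EB library, and was 7.20-fold higher, a log2 fold of 2.85 that stood at 3.51 in the quantile-normalized values. Among microRNAs linked to fibrosis and matrix, 9 of 13 measured ones (16 were listed) were lower by 2-fold or more, none was higher by that much, beside the same 30.2% and 33.5%, and the median log2 fold was -1.51 beside 0.07. The 9 included all 6 entries of the miR-30 family, with both copies of miR-30c, and mir-199a-2, which had only 2 and 3 EB counts. The miR-200 entries went the other way with TMM. There mir-200a was 1.43-fold (1.11 to 1.83), mir-200b 1.42-fold (1.19 to 1.69) and mir-200c 1.17-fold higher (1.02 to 1.35). By library totals 7 of the 13 were lower by 2-fold or more, beside 26.4%. In the quantile-normalized values 7 were lower and 2 higher by that much, beside 31.6% and 28.1%. The growth-linked mir-21a was 2.32-fold lower (2.15 to 2.49), the copies mir-30c-1 and mir-30c-2 were lower by 4.29-fold (3.61 to 5.13) and by 4.36-fold (3.67 to 5.22), and mir-30a was 2.17-fold lower (1.85 to 2.56). By library totals mir-21a and mir-30a lay under 2-fold, at log2 folds of -0.93 and -0.84. In the quantile-normalized values they were at -0.69 and -0.40. These lists overlap, since mir-22, mir-26a-1 and mir-26a-2 stand in the first 2 and mir-30c-1 and mir-30e in the first and the last.

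The entry nearest to the summed family in level over the 2 libraries was mir-200b, a microRNA of epithelial identity. It had 430 and 446 counts in the ESCs and 187 and 191 in the EBs, 0.161 log2 units from the family. Next were mir-134 (distance 0.395), mir-320 (0.406), mir-298 (0.442) and mir-744 (0.472). The direction was not shared by all 5. With TMM the log2 folds were 0.51 for mir-200b, 0.78 for mir-134, -0.17 for mir-320, -0.18 for mir-298 and 0.04 for mir-744, beside 0.37 for the summed family. With only 2 points each, this closeness describes level alone. It also depends on the sum, which holds both miR-29b entries and stood at 877 CPM in the ESCs and 1379 CPM in the EBs. With miR-29b counted once the family stood at 547 and 855 CPM, and the entries nearest to that level were not sought.

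Messenger RNA was not analysed here, but the letters that the miR-29 seed pairs with can be shown in genes it is known to repress. The reverse complement of the seed is TGGTGCT, searched on the sense strand of the 3′ untranslated region of the principal GENCODE M21 transcript. It was present in 12 of 13 such genes with a region to search, against 12.2% of 20742 genes overall. The 13 were chosen as reported targets and their regions are longer, with a median of 1378 bases against 848, so nothing is read from that difference. For Dnmt3a, a de novo DNA methyltransferase, there were 5 matches in 6696 bases, a length at which 47.8% of genes had at least 1. For Dnmt3b there was 1 match in 1331 bases, where 12.6% had one, and for the fibrillar collagen gene Col3a1 there was 1 in 959 bases, where 9.41% had one. Elastin (Eln) had 3 matches in 1188 bases, where 11.96% had one, and the fibrillar collagen gene Col1a2 had none in 882 bases. A match of this kind is no evidence of binding in these cells. The sites below show, on the sense strand, the match in capitals, and the one in Dnmt3a is the last of its 5. The genes lie on chromosomes 12, 2 and 1 of GRCm38, in this order, each on the plus strand.
Dnmt3a: ggggtcccaagcTGGTGCTaattc
Dnmt3b: agtagcccggcaTGGTGCTcatgt
Col3a1: aaaatgtctcaaTGGTGCTataat
In the Dnmt3a site shown and in Col3a1 the match is followed by an A, opposite the first base of miR-29, and in Dnmt3b by a C. Of the 5 matches in Dnmt3a only 2 are followed by an A.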

How the data were processed

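The authors deposited original counts per microRNA gene for 2 columns a group, per the file headers, their means, treated as estimated counts, and a normalized signal. The columns of that signal, once sorted, were identical, as quantile normalization gives. Aligner, counter, build and microRNA database were not given in the sources used here, and no molecular identifiers are described. Columns were matched to samples by their order number.

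From mir-664 on, the counts of 169 rows stood 1 row too low and were moved up (rank correlation with the normalized values 0.355 to 0.541 before, 0.995 to 0.998 after). The miR-29 rows lie above that point. The counts of mir-99b were reconstructed as the 1 set of 7280 that gave back all normalized values.

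Entries were measured when edgeR (4.0.16) filterByExpr kept them (minimum count 10, minimum total 15), and scaled by TMM. Folds are ratios of mean counts with exact conditional binomial intervals at 95%, shares have Clopper-Pearson intervals, and ratios of count ratios have exact conditional intervals on means rounded to whole counts. Where a group had 0 counts it was set to 3. No test was made, because each pair of columns differed by less than counting error. The fold calculation was tested on simulated data in which the scaling was given, so the choice of scaling between libraries was not tested. Members and lists were chosen with earlier results of these data known. The named entries were the members, the 5 nearest to their sum and up to 4 of the most abundant in each list. Python 3.11.15, scipy 1.17.1, R 4.3.3 and DESeq2 1.42.0 (size factors) were used.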

Additional observations from a re-analysis of the deposited data

How the results depend on the processing

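In the authors' quantile-normalized values the log2 folds of mir-29a, mir-29b-1, mir-29b-2 and the summed family were -0.29, -0.32, -0.36 and -0.30, against 0.28, 0.41, 0.36 and 0.37 with TMM, and the cause was not tested. By library totals the sum was at 0.65. The other alternatives (DESeq2 size factors, no filter, totals without the miR-290 to miR-295 cluster, counts as deposited, mir-99b left out, each column left out) kept the direction of all 4 entries and of the sum, within the counting interval. Counts as deposited and mir-99b left out gave identical folds for the miR-29 entries, whose rows lie above the displaced ones, so they are a single check. Leaving out a column gave 0.30 to 0.61 for the sum. Without the miR-290 to miR-295 cluster in the total, the family took 0.190% of ESC and 0.289% of EB counts. Against the full total, counting miR-29b once moved the family's share from 0.0877% to 0.0547% (ESC) and from 0.138% to 0.0855% (EB), and within the family those of miR-29a from 19.4% to 31.1% (ESC) and from 18.2% to 29.4% (EB), of miR-29b from 75.3% to 60.3% and from 76.0% to 61.3%, and of miR-29c from 5.32% to 8.52% (ESC). Summing all entries moved no ratio of count ratios outside its interval. Entries at least 2-fold higher or lower stayed within 1.5 times of 123 and 111. In the fibrosis and matrix list 2 entries, against 0, were higher by 2-fold or more in the quantile-normalized values. The alternatives for lists and ratios of count ratios were chosen after seeing the data. No paired analysis was possible because the result comes from no test, with each pair of columns counted as 1 sample. The EB depth limits mir-29c most, at 11 counts.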
